A study of Mus musculus with 12 samples.

Results

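The EGR and NR4A genes encode transcription factors that cells switch on within minutes of a stimulus, without new protein synthesis. The set described here holds 8 genes of the 31719 symbols measured in RAW264.7, a mouse macrophage-like cell line. They are the zinc finger factors Egr1, Egr2 and Egr3, their corepressors Nab1 and Nab2, and the nuclear receptors Nr4a1, Nr4a2 and Nr4a3. Each was taken by its symbol, and each symbol occurred once in the table. The set was picked knowing that Egr1 and Egr2 were lower and Nr4a1 higher in cells given LPS with an antibody against CD36 than in cells given LPS alone. That contrast, and the interaction built on it, are therefore described for the 8 genes without p-values, and they support nothing. Tests are given for the other contrasts. Of these, LPS against untreated cells and LPS in antibody-treated cells share libraries with the contrast the set was picked on. Their p-values are therefore not free of that choice.

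RNA was sequenced from wild-type RAW264.7 cells in 4 groups of 3 libraries. The groups were LPS (50 ng/ml) with anti-CD36 antibody (dilution 1 in 100), LPS alone at that dose, the antibody alone at that dilution, and untreated cells. LPS is a bacterial cell wall component sensed by TLR4, while CD36 takes up modified lipoproteins and fatty acids. There was no isotype control antibody among the groups, and the labels gave no treatment time. Nor did they say that replicates were separate cultures, so the p-values speak for the spread among these libraries, which may be technical.

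In many cell types EGR genes are driven by the ERK kinases through the serum response factor SRF, which binds CArG boxes. NR4A genes are known to respond to cyclic AMP through CREB at cAMP response elements, and to LPS in macrophages. EGR proteins recruit NAB1 and NAB2, which bring in the NuRD chromatin complex and damp EGR activity. Nr4a1 is best known in macrophages for holding back inflammatory gene expression.

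The promoters show which of these motifs each gene carries near its start. RefSeq start sites (assembly GRCm38.p6) were available for 6 of the 8 genes, in 10 windows of 300 bases, from 250 before to 50 after a start. Egr1 and Egr3 had no entry. The sequences below are the upstream parts of 4 windows, cut short in Nr4a3 where an annotated GENCODE exon begins. Those of Egr2 and Nr4a1 lie inside the annotated span of the gene, before an internal start. They are shown because these genes had either a CArG box or several cAMP response element half-sites. Capitals mark the half-site TGACG on either strand, and the CArG box.

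Egr2 (chr10:67537619-67537868, plus strand): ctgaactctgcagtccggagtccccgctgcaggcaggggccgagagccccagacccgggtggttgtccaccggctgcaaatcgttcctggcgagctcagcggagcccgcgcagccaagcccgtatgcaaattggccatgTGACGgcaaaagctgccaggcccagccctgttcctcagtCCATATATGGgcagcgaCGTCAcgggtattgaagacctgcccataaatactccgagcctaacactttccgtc
Nr4a1 (chr15:101266596-101266845, plus strand): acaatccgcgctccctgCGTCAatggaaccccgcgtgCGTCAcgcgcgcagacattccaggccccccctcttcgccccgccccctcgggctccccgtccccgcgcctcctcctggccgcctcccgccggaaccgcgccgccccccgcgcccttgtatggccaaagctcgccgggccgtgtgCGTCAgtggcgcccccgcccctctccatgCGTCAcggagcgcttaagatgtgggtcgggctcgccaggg
Nr4a2 (chr2:57124004-57124253, minus strand): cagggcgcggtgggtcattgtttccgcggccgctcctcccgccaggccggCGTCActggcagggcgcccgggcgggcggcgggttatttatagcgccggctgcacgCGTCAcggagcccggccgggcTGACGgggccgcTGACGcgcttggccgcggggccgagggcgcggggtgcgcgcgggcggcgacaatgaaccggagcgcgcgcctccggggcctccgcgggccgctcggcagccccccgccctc
Nr4a3 (chr4:48045055-48045152, plus strand): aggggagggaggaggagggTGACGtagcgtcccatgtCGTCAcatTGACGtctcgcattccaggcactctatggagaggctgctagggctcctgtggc

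The windows of Nr4a1, Nr4a2 and Nr4a3 each held 4 half-sites. In Nr4a3 the fourth lay past the printed stretch, in an annotated exon. Of 32851 RefSeq promoter windows of the same length, 20.8% held at least 1 half-site and 1.03% held 3 or more. The Egr2 window printed above held 2 half-sites and a CArG box 72 to 63 bases before the start, a motif present in 1.63% of all windows. Nab1 had 1 half-site, and Nab2 had no match to any motif searched. The only Nab2 window lies inside the annotated span of the gene, before an internal start, so the gene's annotated 5' end was not searched. The EGR binding motif GCGNGGGCG, in 5.55% of all windows, was found 3 times in Nab1 and once each in Nr4a1 and Nr4a2. All Nab1 matches lie inside the annotated span of the gene, before an internal start. The windows of Nab1 and Nr4a2 were 81.7% GC and that of Nr4a1 72.3%, and the shares of all windows were not matched for GC. A kappaB site, in 4.51% of windows, was found once each in Nab1 and Nr4a1. Neither the full element TGACGTCA (1.79% of windows) nor the NR4A monomer site AAAGGTCA (1.51%) was found in any of the 10 windows. TGACG lies inside TGACGTCA, all motifs were searched on both strands, and a match is only a match of letters.

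**Figure D1:**
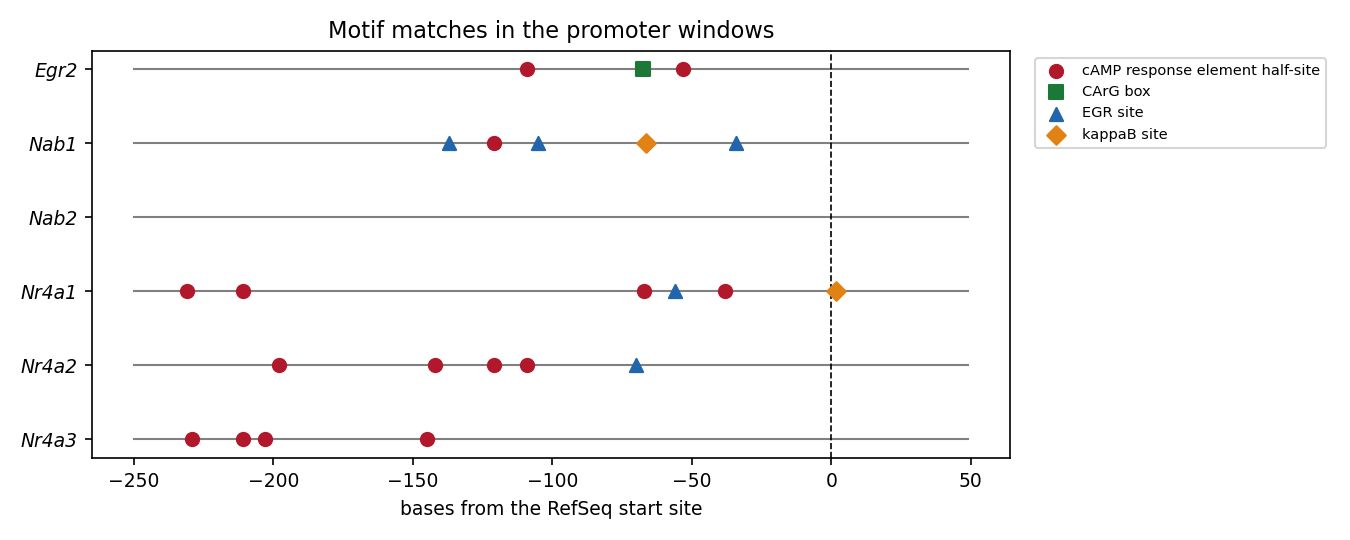
Position of each motif match, in bases from the RefSeq start site (0), along the 300-base promoter window of each gene with an entry, with 1 window shown for Egr2. The 3 NR4A genes each carry 4 cAMP response element half-sites (red circles), Egr2 carries 2 and the only CArG box (green square), and Nab2 carries no match in its window, which lies inside the gene.

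Levels are given in FPKM, reads scaled by gene length and library depth, with mean ± SD over 3 libraries. Depth ran from 30070450 reads in untreated replicate 2 to 54137810 in untreated replicate 1. The cells carried the markers of their lineage: 8 of 8 macrophage markers reached 1 FPKM in at least 3 libraries, among them Lyz2 at 2670 to 4450 FPKM. Of 5 T cell markers 1 did, the kinase Lck, which put their summed level at 5.74 to 6.59 FPKM with LPS and antibody, 4.98 to 7.77 with LPS, 2.26 to 2.83 with the antibody and 1.71 to 2.35 in untreated cells. The defining T cell markers Cd3d, Cd3e and Cd3g never passed 0.0204 FPKM. No B cell, fibroblast or neutrophil marker passed 0.387 FPKM, and the 4 epithelial markers were at 0. Since whole cultures were sequenced, fewer cells expressing a gene and less RNA per cell cannot be told apart.

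Egr1, which lies at chr18:34859823-34864984 on the plus strand (GRCm38, as are the gene coordinates that follow), was the most abundant EGR gene. It stood at 14.9, 13.0 and 12.8 FPKM in the libraries with LPS and antibody, at 38.6, 31.2 and 32.9 with LPS alone, at 8.18, 7.94 and 8.56 with the antibody alone, and at 6.72, 7.24 and 6.76 in untreated cells. No group overlapped another, and the order was LPS, LPS with antibody, antibody, untreated. The LPS mean of 34.2 ± 3.87 was 4.95 times the untreated mean of 6.90 ± 0.29, a rise of 2.15 (SE 0.09) on the log2(FPKM + 1) scale (limma adjusted p = 3.81e-09). With the antibody present LPS raised it to 13.6 ± 1.17 against 8.23 ± 0.312 with the antibody alone, or 1.65 times (0.66, SE 0.09, limma adjusted p = 8.9e-05). The antibody alone did not change it by the test (0.22, SE 0.09, limma adjusted p = 0.224), although its 3 libraries lay above the 3 untreated ones. Between LPS with antibody and LPS alone the ratio of means was 0.397 and the log2 difference −1.27 (SE 0.09). Egr1 stood above 68.2% of the genes tested with LPS and antibody, and above 86.7% with LPS.

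Egr2 (chr10:67535475-67542188, plus strand), a factor of myeloid differentiation and of alternatively activated macrophages, did not follow Egr1. Its levels were 2.28, 2.27 and 1.91 FPKM with LPS and antibody, 3.74, 3.25 and 3.24 with LPS, 2.61, 2.96 and 3.34 with the antibody and 2.88, 3.36 and 3.17 in untreated cells. The libraries with LPS and antibody lay below the other 9, while the other 3 groups overlapped. LPS alone did not pass the test (0.09, SE 0.09, limma adjusted p = 0.435), nor did the antibody alone (−0.06, SE 0.09, limma adjusted p = 0.685). Combined, LPS and antibody gave a mean of 2.15 ± 0.207 against 2.97 ± 0.366 with the antibody alone (−0.33, SE 0.09, limma adjusted p = 0.0106). That call was lost with median-of-ratios scaling (limma adjusted p = 0.0576), without LPS+anti-CD36 replicate 3 (adjusted p = 0.0512) and without anti-CD36 replicate 3 (adjusted p = 0.054). Against LPS alone, whose mean was 3.41 ± 0.287, the log2 difference was −0.49 (SE 0.09).

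Egr3 (chr14:70077203-70082614, plus strand), a factor best studied in lymphocytes and neurons, ran opposite to Egr1 under LPS. It stood at 1.83, 1.76 and 1.40 FPKM with LPS and antibody, 3.32, 2.76 and 3.45 with LPS, 6.22, 6.72 and 6.77 with the antibody, and 5.90, 7.05 and 5.91 in untreated cells. Both LPS groups lay below both groups without LPS, and the combined group was lowest, while the antibody and untreated groups overlapped. LPS lowered its mean to 3.18 ± 0.368 against 6.29 ± 0.661 in untreated cells, a fall of 0.80 on the log2 scale (−0.80, SE 0.10, limma adjusted p = 3.18e-05). With the antibody present it was 1.66 ± 0.232 against 6.57 ± 0.307, or 0.253 times (−1.51, SE 0.10, limma adjusted p = 1.5e-07). The antibody alone gave 0.06 (SE 0.10, limma adjusted p = 0.717). LPS with antibody stood at 0.524 times the level in LPS alone (−0.65, SE 0.10).

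The makeup of the EGR sum shifted with LPS. The 3 genes added up to 17.4 ± 1.49 FPKM with LPS and antibody, 40.8 ± 4.35 with LPS, 17.8 ± 0.841 with the antibody and 16.3 ± 1.15 in untreated cells. Egr1 made up 78.1% ± 1.6 of that sum with LPS and antibody, 83.8% ± 0.713 with LPS, 46.3% ± 1.58 with the antibody and 42.3% ± 1.19 in untreated cells. The sums with LPS and antibody (16.1 to 19.0) overlapped those with the antibody alone (17.0 to 18.7), with more Egr1 and less Egr3 in them.

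**Figure D2:**
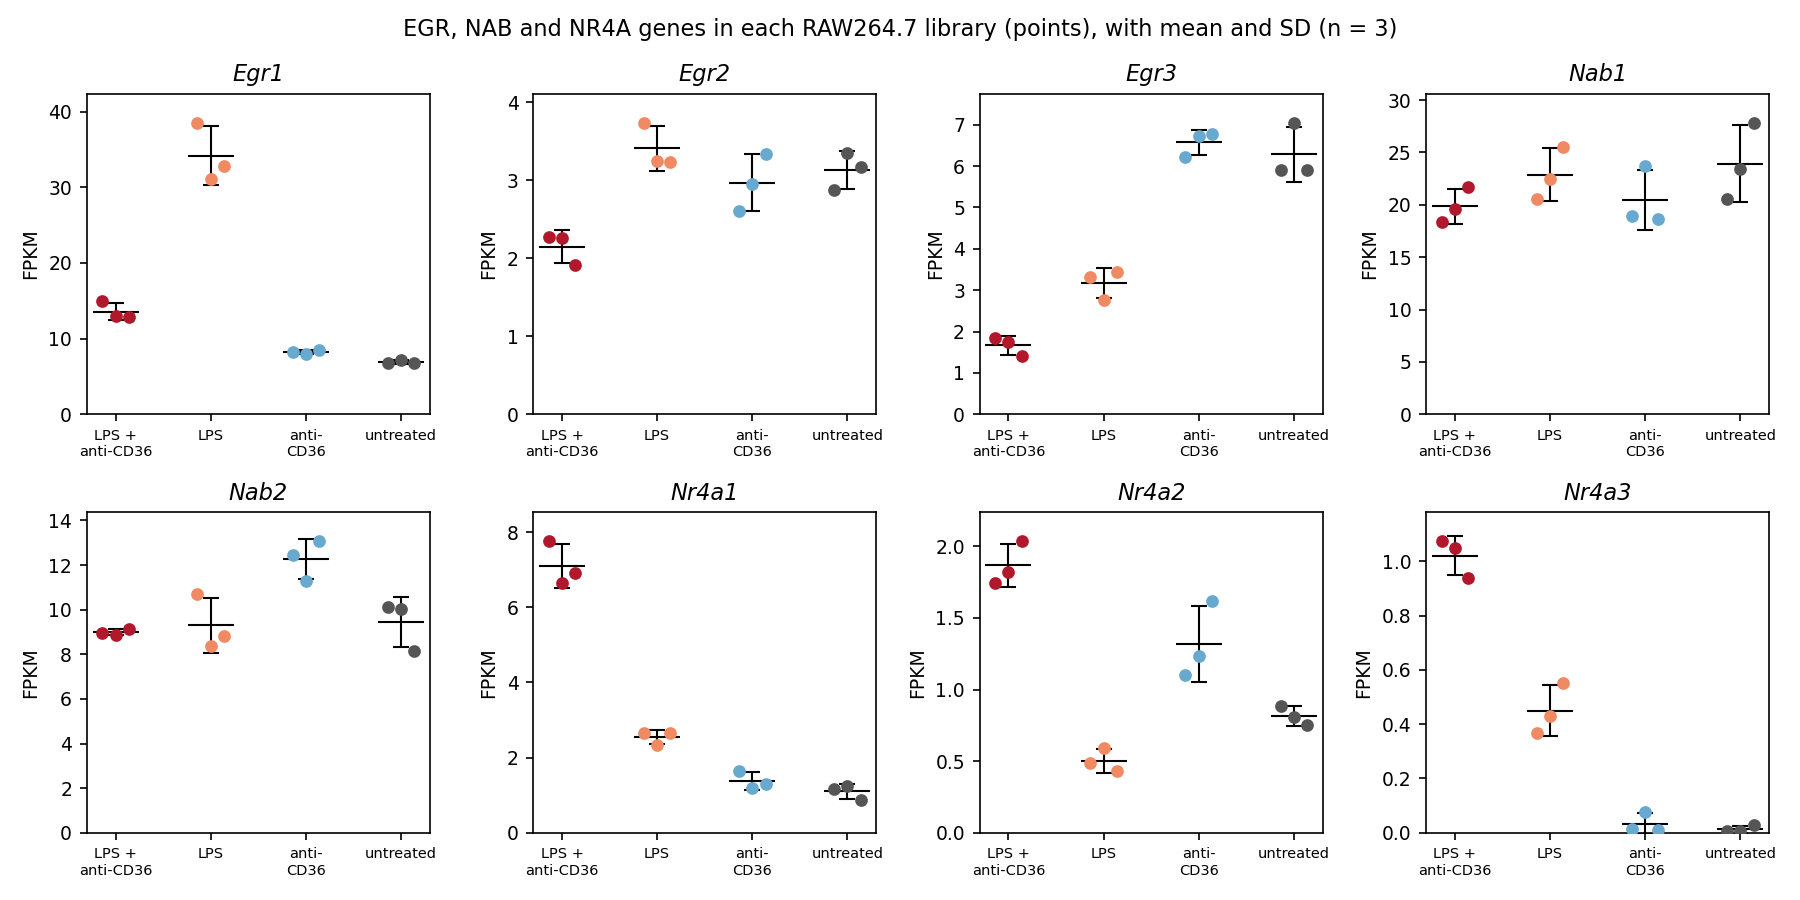
FPKM of each of the 8 genes in every library (points), with group mean and SD (bars, n = 3), each panel on its own scale from 0. Egr1 is highest with LPS (31.2 to 38.6 FPKM), Egr3 is lowest with LPS and antibody (1.40 to 1.83), and the 3 NR4A genes are highest with LPS and antibody.

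The SD of log2(FPKM + 1) over the 12 libraries was 0.18 for Nab1 and 0.20 for Nab2, against 0.88 for Egr1, 0.21 for Egr2 and 0.66 for Egr3. Nab1 (chr1:52457294-52500679, minus strand) ranged from 18.3 to 27.8 FPKM over the 12 libraries, with means of 19.9 ± 1.68 with LPS and antibody, 22.9 ± 2.52 with LPS, 20.4 ± 2.87 with the antibody and 23.9 ± 3.69 in untreated cells. Neighbouring groups overlapped throughout, and no contrast tested passed (limma adjusted p = 0.352 for the antibody, 0.74 for LPS, 0.854 for LPS in antibody-treated cells). Its log2 difference between LPS with antibody and LPS alone was −0.19 (SE 0.13).

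Nab2 (chr10:127660918-127668568, minus strand), itself known as a target of EGR factors, stood at 8.94, 8.88 and 9.14 FPKM with LPS and antibody, 10.7, 8.36 and 8.84 with LPS, 12.4, 11.3 and 13.1 with the antibody, and 10.1, 10.1 and 8.15 in untreated cells. The antibody libraries lay above the other 9, which overlapped. Against untreated cells the antibody gave 0.35 (SE 0.10), which did not pass (limma adjusted p = 0.15) and was 0.13 with GC and length trends removed. In antibody-treated cells LPS lowered it, to 8.99 ± 0.134 against 12.3 ± 0.901 (−0.41, SE 0.10, limma adjusted p = 0.00666), a call lost with median-of-ratios scaling (limma adjusted p = 0.0761). LPS alone gave −0.02 (SE 0.10, limma adjusted p = 0.889), a sign that turned with scaling, and LPS with antibody against LPS gave −0.04 (SE 0.10).

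Egr1 and Nab2 can be set side by side as levels per length. The ratio of Egr1 to Nab2 FPKM was 1.51 ± 0.14 with LPS and antibody, 3.68 ± 0.0705 with LPS, 0.672 ± 0.0269 with the antibody and 0.738 ± 0.0837 in untreated cells. Egr1 RNA exceeded that of Nab2 in all 6 LPS libraries and in none of the 6 without LPS. Against Nab1 it was higher in the 3 libraries with LPS alone and lower in the 3 with LPS and antibody.

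Nr4a1 (chr15:101254269-101274795, plus strand) was highest where both treatments were given. Its levels were 7.76, 6.64 and 6.91 FPKM with LPS and antibody, 2.65, 2.33 and 2.65 with LPS, 1.64, 1.18 and 1.30 with the antibody, and 1.17, 1.25 and 0.876 in untreated cells. Every library of the combined group lay above every LPS library, and those lay above the 6 others, among which the antibody and untreated groups overlapped. LPS alone raised it to 2.55 ± 0.184 against 1.10 ± 0.197 in untreated cells, 2.32 times (0.76, SE 0.10, limma adjusted p = 5.9e-05, and 1.15 with a pseudocount of 0.1). In antibody-treated cells LPS raised it to 7.10 ± 0.586 against 1.37 ± 0.235, 5.18 times (1.77, SE 0.10, limma adjusted p = 4.84e-08). The antibody alone gave 0.18 (SE 0.10, limma adjusted p = 0.33). The combined group stood at 2.79 times the LPS level, a log2 difference of 1.19 (SE 0.10).

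Nr4a2 (chr2:57106830-57124003, minus strand), a receptor essential for dopamine neurons and inducible in macrophages, had another order. It stood at 1.74, 1.82 and 2.04 FPKM with LPS and antibody, 0.488, 0.594 and 0.429 with LPS, 1.10, 1.23 and 1.62 with the antibody, and 0.887, 0.811 and 0.750 in untreated cells. The order was LPS with antibody, antibody, untreated, LPS, and no group overlapped its neighbour. All libraries without the antibody lay below 1 FPKM, at 64, 76 and 59 reads with LPS and 195, 99 and 110 in untreated cells. Nr4a2 thus passed the filter only through the libraries with antibody. Under LPS alone it fell, to 0.504 ± 0.0837 against 0.816 ± 0.0687 in untreated cells (−0.27, SE 0.09, limma adjusted p = 0.029, and −0.61 with a pseudocount of 0.1 or −0.47 with TPM scaling). That call did not hold with median-of-ratios scaling (−0.21, limma adjusted p = 0.0742), nor without LPS replicate 1 (adjusted p = 0.0535), LPS replicate 3 (adjusted p = 0.0879), untreated replicate 1 (adjusted p = 0.0834) or untreated replicate 2 (adjusted p = 0.0667).

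In antibody-treated cells the direction for Nr4a2 was the other one. LPS with antibody gave 1.87 ± 0.151 against 1.32 ± 0.268 with the antibody alone (0.31, SE 0.09, limma adjusted p = 0.0161), lost without LPS+anti-CD36 replicate 3 (adjusted p = 0.0651), anti-CD36 replicate 1 (adjusted p = 0.0653) or anti-CD36 replicate 2 (adjusted p = 0.0524). The antibody alone gave 0.35 (SE 0.09), which did not pass (limma adjusted p = 0.128). The combined group stood at 3.71 times the LPS level (0.93, SE 0.09).

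Nr4a3 (chr4:48045153-48086447, plus strand) was near the detection limit without LPS. It stood at 1.07, 1.05 and 0.938 FPKM with LPS and antibody, 0.367, 0.429 and 0.552 with LPS, 0.0132, 0.0776 and 0.0110 with the antibody, and 0.00617, 0.00555 and 0.0277 in untreated cells. In reads these were 237, 253 and 273 with LPS and antibody, 71, 81 and 112 with LPS, 3, 14 and 2 with the antibody, and 2, 1 and 6 in untreated cells. Both LPS groups thus rested on many reads and did not overlap each other, while the groups without LPS rested on few. Nr4a3 reached 1 FPKM in 2 libraries only and so missed the filter of at least 1 FPKM in at least 3. With no filter it rose with LPS (0.51, SE 0.05, limma adjusted p = 2.09e-05) and with LPS in antibody-treated cells (0.97, SE 0.05, limma adjusted p = 2.35e-07), and gave 0.03 (SE 0.05, limma adjusted p = 0.82) with the antibody alone.

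The NR4A sum was 9.99 ± 0.543 FPKM with LPS and antibody, 3.50 ± 0.137 with LPS, 2.72 ± 0.219 with the antibody and 1.93 ± 0.237 in untreated cells. Nr4a1 made up 71.0% ± 2.02 of it with LPS and antibody and 72.7% ± 3.07 with LPS. In the combined group Nr4a1 lay above 49.5% of the genes tested there, Nr4a2 above 15.2% and Nr4a3 above 5.57%.

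**Figure D3:**
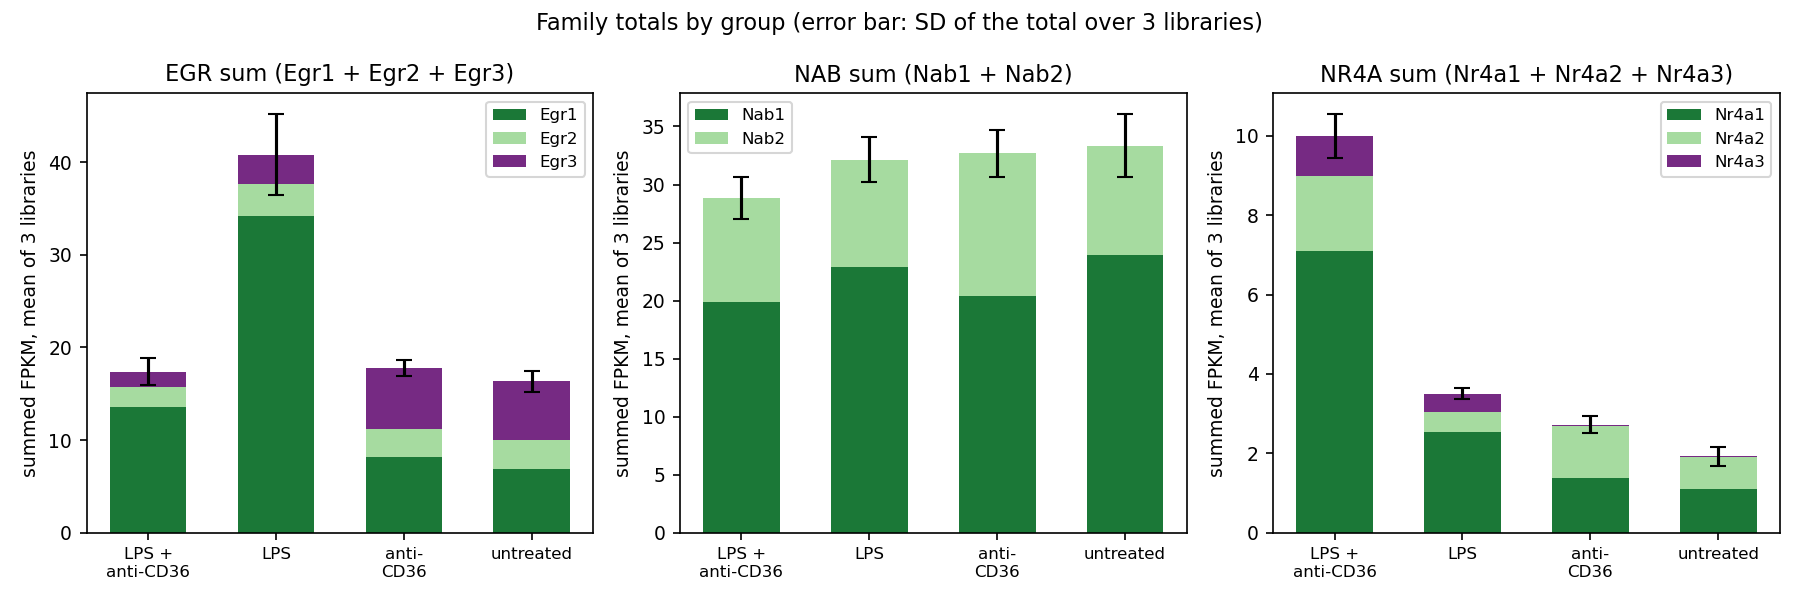
Summed FPKM of each family by group, stacked by gene, as means of 3 libraries with the SD of the sum as error bar. The EGR sum is highest with LPS (40.8 FPKM) and the NR4A sum with LPS and antibody (9.99 FPKM), while the NAB sum lies between 28.8 and 33.4 FPKM in every group.

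Counted over the 7 genes that passed the filter, 2 were past the threshold as higher and 3 as lower in LPS with antibody against LPS, where 15.5% of all genes tested were past it (755 or 7.35% higher, 837 or 8.14% lower). Those counts over all genes depended on single libraries, running from 260 higher and 326 lower without LPS replicate 2 to 1972 and 2008 without LPS replicate 1. The 7 genes gave 2 and 3 in every such run. The groups did not overlap for 5 of the 7, beside 36.1% of all genes. Since the set was picked on this contrast, nothing is read from these shares, nor from the counts of the 7 genes staying the same. For the antibody alone 0 of 7 passed with limma, beside 0.341% of all genes. The counts over all genes ran from 0 higher and 1 lower without anti-CD36 replicate 3 to 61 and 70 without LPS replicate 1. At an unadjusted p under 0.05, 3 of the 7 were higher. The share of all genes at that unadjusted threshold is not given here, so nothing is read from that count. The antibody and untreated libraries did not overlap for 3 of the 7, Egr1, Nab2 and Nr4a2, all higher with the antibody, beside 22.7% of all genes.

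For LPS against untreated cells 2 of 7 rose and 2 fell, with 49.8% of all genes called (16.6% higher, 33.1% lower), so the share of these genes called was near that of genes at large. Groups did not overlap for 4 of the 7 and for 49.6% of all genes. In antibody-treated cells LPS raised 3 and lowered 3 of the 7, where 47.5% of all genes were called (16.3% higher, 31.3% lower), and groups did not overlap for 6 of them, beside 63.9% of all genes. These contrasts share libraries with each other and with the contrast the set was picked on. The median change of all genes tested was −0.14 for LPS and −0.12 for LPS in antibody-treated cells, and −0.01 for both once the libraries were scaled by the median of ratios. That scaling moved the share of higher calls among all calls to 50.7% for LPS, against 33.4% as deposited, and to 50.3% for LPS in antibody-treated cells, against 34.2% as deposited. The medians of the 7 genes were −0.02 and −0.03 as deposited, and turned to 0.12 and 0.10 with that scaling. Under it 1 of the 7 fell with LPS and 1 fell with LPS in antibody-treated cells, while the rises stayed at 2 and 3. The falls with LPS were also 1 without LPS replicate 1 or 3, or untreated replicate 1 or 2. In antibody-treated cells LPS+anti-CD36 replicate 3 left out gave 2 rises and 2 falls, anti-CD36 replicate 1 or 2 left out gave 2 rises, and anti-CD36 replicate 3 left out gave 2 falls.

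**Figure D4:**
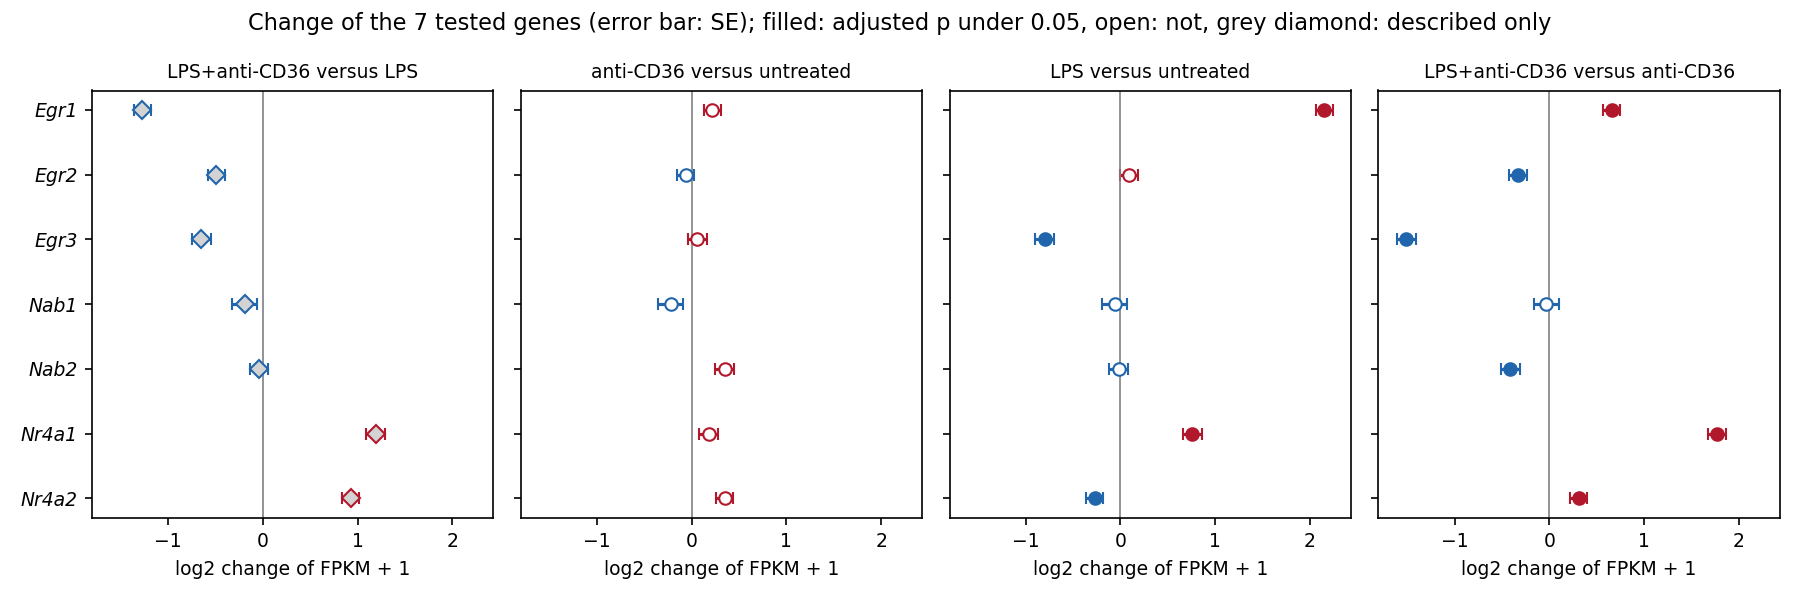
Change of the 7 genes that passed the filter in the 4 contrasts, on the log2(FPKM + 1) scale with SE. Filled circles passed the limma test, open circles did not, and grey diamonds mark the contrast the set was picked on, given without a test. Egr1 and Nr4a1 rise with LPS with or without the antibody, and Egr3 falls in both.

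The antibody's effect with LPS, minus its effect without LPS, was −1.49 (SE 0.13) for Egr1, −0.42 (SE 0.13) for Egr2 and −0.71 (SE 0.14) for Egr3 on the log2 scale. For Nab1 it was 0.02 (SE 0.18) and for Nab2 −0.39 (SE 0.15). For Nr4a1 it was 1.01 (SE 0.14) and for Nr4a2 0.59 (SE 0.13). Egr1, Egr3 and Nr4a1 were past the threshold, 3 of 7 beside 1.28% of all genes tested (0.496% higher, 0.788% lower), and Egr3 was past it in 12 of 22 settings. The set was picked on the change that enters this difference, so nothing is read from that count. All 3 EGR values were negative and both NR4A values positive.

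Other immediate early genes also went both ways. Of 35 listed, 31 were tested, with a median of −0.17 beside 0.02 for all genes in LPS with antibody against LPS. In that contrast, where 7.35% of all genes were called higher and 8.14% lower, 5 of the 31 rose and 9 fell. Those of smallest p were falls of Zfp36l1, an mRNA decay factor (20.4 ± 1.02 against 38.3 ± 2.47 FPKM, −0.88, limma adjusted p = 2.58e-05), the kinase gene Plk2 (18.9 ± 2.44 against 46.6 ± 5.91, −1.26, limma adjusted p = 2.76e-05) and the stress factor Atf3 (34.5 ± 0.537 against 81.4 ± 3.27, −1.21, limma adjusted p = 4.03e-05). LPS alone raised 25 of the 31 and lowered 3, with a median of 1.42, and LPS raised 25 and lowered 3 in antibody-treated cells, with a median of 0.99. Of all genes 16.6% were called higher and 33.1% lower with LPS alone, and 16.3% and 31.3% with LPS in antibody-treated cells. With LPS alone the 3 falls became 1 without untreated replicate 2. In LPS with antibody against LPS the 5 rises became 3 without LPS+anti-CD36 replicate 2 and 7 without LPS replicate 1. The 9 falls became 16 once GC and length trends were removed. They became 7 without any 1 library of LPS+anti-CD36, or without LPS replicate 2, anti-CD36 replicate 3 or untreated replicate 2. In the interaction 4 of the 31 were called, all negative, beside 0.788% of all genes called negative there. Leaving out LPS replicate 1 added 2 positive calls. The antibody alone gave 0 called by limma, with 10 higher and 2 lower at an unadjusted p under 0.05, and 2 called higher without LPS replicate 1. No share of all genes at that unadjusted threshold is given, so nothing is read from the 10 and 2.

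Of 16 ERK and SRF pathway genes, which act upstream of the EGR family, 2 fell and 0 rose in LPS with antibody against LPS, where 15.5% of all genes were called, with a median of −0.17, and the falls were 6 and the rises 3 without LPS replicate 1. Without untreated replicate 1, or 3, 4 fell. The 2 were Mrtfb, an SRF coactivator (1.35 ± 0.197 against 2.48 ± 0.18 FPKM, −0.57, limma adjusted p = 0.00192), and Map2k1, a kinase that activates ERK (44.8 ± 1.83 against 63.4 ± 1.41, −0.49, limma adjusted p = 0.00566). LPS alone raised 3 and lowered 5 of the 16, near the share of all genes (16.6% higher, 33.1% lower). Of these falls 3 were left without LPS replicate 3 and 2 without untreated replicate 2.

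The tested CREB and MEF2 factors, which act upstream of NR4A genes, numbered 10. In LPS with antibody against LPS, where 7.35% of all genes were called higher and 8.14% lower, 1 of these rose. It was Crem, a CREB family gene whose products include the repressor ICER (4.64 ± 0.421 against 3.49 ± 0.281 FPKM, 0.33, SE 0.10, limma adjusted p = 0.0457), and it was not called when any library of LPS+anti-CD36, LPS replicate 2 or 3, or anti-CD36 replicate 2 or 3 was left out. No gene of the list fell, but 3 did without LPS replicate 1, and 1 without untreated replicate 1 or 3.

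Of 13 subunits of the NuRD complex, through which NAB proteins repress, 1 fell in LPS with antibody against LPS, beside 8.14% of all genes. It was the zinc finger subunit Gatad2b (10.8 ± 0.36 against 15.1 ± 1.29 FPKM, −0.45, limma adjusted p = 0.00935), and 12 were not called. LPS alone lowered 8 of the 13, beside 33.1% of all genes. The 8 became 5 without LPS replicate 2, LPS replicate 3 or untreated replicate 2, and 4 with median-of-ratios scaling.

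Of 5 tested partners of NR4A receptors 2 fell in LPS with antibody against LPS, beside 8.14% of all genes. They were the corepressors Ncor1 (9.08 ± 0.142 against 14.0 ± 1.97 FPKM, −0.57, limma adjusted p = 0.00932) and Rcor1 (7.17 ± 0.152 against 11.0 ± 0.905, −0.55, limma adjusted p = 0.00934), and a rise was added without LPS replicate 1. Both also stood high in untreated cells, Ncor1 at 14.4 ± 2.37 and Rcor1 at 14.0 ± 2.00 FPKM. With the antibody alone they were lower, Ncor1 at 10.6 ± 0.363 and Rcor1 at 10.4 ± 1.31 FPKM. For the antibody alone against untreated cells limma called 0 of the 5, with 2 lower at an unadjusted p under 0.05. No share of all genes at that unadjusted threshold is given, so nothing is read from the 2.

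For 11 tested genes known as EGR targets the median was 0.01 in LPS with antibody against LPS. At an unadjusted p under 0.05, 3 of them were higher and 4 lower, without a share of all genes at that threshold. By limma adjusted p 4 fell and 0 rose, where 7.35% of all genes were called higher and 8.14% lower. By p the first were Vegfa, an angiogenic growth factor (14.3 ± 0.881 against 31.0 ± 1.14 FPKM, −1.06, limma adjusted p = 2.13e-05), and F3, the trigger of coagulation (1.90 ± 0.0538 against 5.10 ± 0.991, −1.06, limma adjusted p = 0.000161). Of the list 2 genes rose without LPS replicate 1, and 1 without anti-CD36 replicate 2. The 4 falls became 3 when any library other than LPS replicate 3 or untreated replicate 3 was left out. LPS alone raised 7 and lowered 2, where 16.6% of all genes were called higher and 33.1% lower. In the interaction 2 were negative past the threshold, F3 (−0.97, SE 0.16, limma adjusted p = 0.012) and Vegfa (−0.74, SE 0.13, limma adjusted p = 0.0127), and 9 were not called. With TPM scaling neither was called. Among all genes tested 0.788% were called lower in the interaction.

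**Figure D5:**
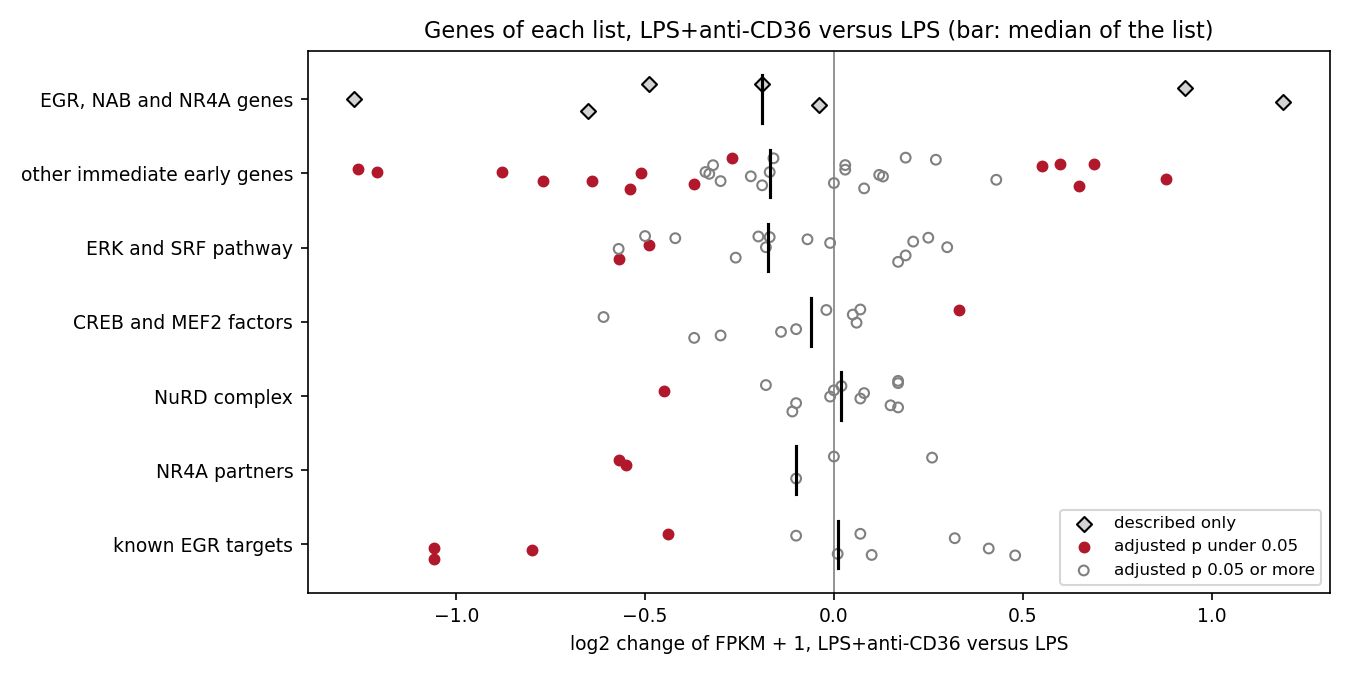
Change of each gene in LPS with antibody against LPS, on the log2(FPKM + 1) scale, by list, with the list median as a bar. The EGR, NAB and NR4A genes run from −1.27 to 1.19 and are given as grey diamonds without a test, and the other immediate early genes, with 5 rises and 9 falls past the threshold (red), also lie on both sides of 0.

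The genes whose profile over the 12 libraries was most like each member were found by the root mean square difference of centred log2 values, as a description. For Egr1, whose own SD was 0.88, they were the glucose transporter gene Slc2a1 (0.196), the lipid droplet gene Hilpda (0.252) and Jun (0.252). Slc2a1 averaged 79.6 FPKM with LPS and antibody, 152 with LPS, 47.8 with the antibody and 47.8 in untreated cells. For Egr3 (SD 0.66) they were the autophagy gene Atg9b (0.123), the glycolytic enzyme gene Pfkm (0.163) and Stx2 (0.176), a syntaxin gene. Atg9b averaged 2.84 FPKM with LPS and antibody, 4.33 with LPS, 8.69 with the antibody and 8.89 in untreated cells.

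For Nr4a1 (SD 0.80) the nearest were the synapsin gene Syn1 (0.161), the protease inhibitor Serpinb9 (0.186) and the complement inhibitor Cd59a (0.216). Serpinb9 averaged 9.28 FPKM with LPS and antibody, 4.33 with LPS, 2.54 with the antibody and 1.69 in untreated cells, the same order as Nr4a1. Nr4a2 (SD 0.38) was matched less closely for its size, by Lsp1 (0.18), Sdhaf4 (0.184) and Tmsb4x (0.186). The nearest to Egr2 (SD 0.21) were Irx2 (0.084), Dot1l (0.086) and Hs3st3b1 (0.088). Nab1 (SD 0.18) and Nab2 (SD 0.20) varied little, and the nearest to them were Rbm27 (0.056) and Armc5 (0.062).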

How the data were processed

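RNA sequencing of RAW264.7 cells gave 12 libraries. The table holds 1 FPKM column per library, values the authors computed and deposited. The aligner HISAT2 2.0.5 and the builds mm39 and hg38, with no roles, are named per the submitters' processing notes. The counter and annotation are not given in the sources used here. Of 31801 entries, 82 repeats of a symbol were left out.

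Values fell on whole multiples of a step, taken as 1 read at the GENCODE M21 exon length (GRCm38): 94.6% of 17645 entries were whole in every library within 0.01 reads. Even multiples made up 63.0% to 68.5% of values of 1 to 20 reads, as when both mates are counted, so the independent fragments may be fewer. For 2000 bases, 1 FPKM stood for 60.1 to 108.3 reads (counting coefficient of variation 9.6% to 12.9%, or 13.6% to 18.2% if reads are pairs). That covers counting error only.

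Genes that reached 1 FPKM in 3 or more libraries were tested on log2(FPKM + 1) with one limma 3.58.1 model of the 4 group means (R 4.3.3), with an intensity trend and Benjamini-Hochberg adjustment over 10277 genes for LPS with antibody against LPS, and 10276 otherwise. Il6 was left out there because its values equal those of Gm10874 in 6 libraries. Calls were made at an adjusted p under 0.05. Changes on this scale understate those of low genes. The fit was tested on simulated data. Exact permutation of 3 against 3 libraries cannot go below p = 0.1 and was not used for calls.

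The genes, lists, motifs and tests were chosen with earlier results of these data known. Named from each list were up to 3 called genes of smallest p in LPS with antibody against LPS, and per member the 3 nearest profiles. One gene that this rule names is not reported here. The counts of called genes were repeated with another pseudocount (0.1), no filter, other scalings, other fits, GC and length trends removed, a replicate block, and each library left out, 22 settings in all. Python 3.11.15 with numpy 2.4.6, pandas 2.3.3 and matplotlib 3.10.9 did the rest.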

Additional observations from a re-analysis of the deposited data

Results flagged for a closer look

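For 3 of the 7 genes the antibody's change with LPS, minus its change without LPS, was past the threshold of the interaction, beside 1.28% of all genes: −1.49 for Egr1, −0.71 for Egr3 (in 12 of 22 settings) and 1.01 for Nr4a1. For Egr1 the antibody's change was −1.27 with LPS and 0.22 without. For Egr3 it was −0.65 with LPS and 0.06 without, and for Nr4a1 it was 1.19 with LPS and 0.18 without. The set was picked on the change with LPS, so these values are descriptions and nothing is read from the count.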

How the results depend on the processing

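Over 735 values of members and alternatives, 678 kept their direction and side of the threshold, 22 lost a call, 11 gained one and 24 changed sign. The sign changes concerned Nab1, Nab2 and the uncalled antibody effects on Egr2 and Egr3. Nab1 turned to 0.09 (LPS) and 0.10 (LPS in antibody-treated cells) with median-of-ratios scaling, and its interaction to 0 with TPM scaling and with GC and length trends removed, with or without the block. Nab2 under LPS turned to 0.12 with median-of-ratios scaling and to 0.02 with GC and length trends removed, with or without the block. Egr3 with the antibody turned to −0.02 with TPM scaling. With single libraries left out, ranges were −0.10 to 0.06 for Nab2 in LPS with antibody against LPS, −0.13 to 0.01 for Egr2 with the antibody, −0.16 to 0.05 for Nab1 and −0.12 to 0.05 for Nab2 under LPS, −0.09 to 0.07 for Nab1 under LPS in antibody-treated cells, and −0.09 to 0.13 for the Nab1 interaction. The cause was not tested.

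For LPS with antibody against LPS, 755 genes higher became 387 with TPM scaling (share of higher calls 32.9%, against 47.4%), 394 with only the groups compared and 1168 with GC and length trends removed. The 837 lower became 546 with only the groups compared. For the antibody alone, 15 higher and 20 lower became 0 and 0 with only the groups compared and 154 and 237 with GC and length trends removed. The lower became 5 with TPM scaling (share higher 68.8%, against 42.9%, and 32.4% with median-of-ratios scaling). Under LPS 3403 lower became 2245 with median-of-ratios scaling. In the interaction 51 higher became 19 with pseudocount 0.1 (share higher 21.6%, against 38.6%), 27 with TPM scaling (share 26%) and 129 with trends removed, and 81 lower became 229 with trends removed. Leaving out single libraries gave 1470 to 1934 higher and 2806 to 3525 lower for LPS, 1423 to 1849 and 2601 to 3599 for LPS in antibody-treated cells, 28 to 65 and 47 to 96 in the interaction, 260 to 1972 and 326 to 2008 for LPS with antibody against LPS, and 0 to 61 and 1 to 70 for the antibody.

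Libraries of the same number deviated together only in part. Those of replicate 1 did so across all 4 groups (correlations 0.45 to 0.78), those of replicate 2 ran from −0.32 to 0.43 and those of replicate 3 from −0.07 to 0.81. Of the 18 pairs 10 were over 0.1, and 7 of 12 libraries had their best partner in their own number. A block on the number gave 1889 higher and 1757 lower for LPS with antibody against LPS (1803 and 1717 with trends removed), 535 and 629 for the antibody (399 and 570), and 141 lower in the interaction (187 higher and 335 lower with trends removed). With the block Nab2 (limma adjusted p = 0.0412) and Nr4a2 (limma adjusted p = 0.045) passed for the antibody alone. Nab2 there went to 0.13 with GC and length trends removed, with the block (limma adjusted p = 0.147) or without it (limma adjusted p = 0.324). Nr4a2 also passed with GC and length trends removed (limma adjusted p = 0.0423). Depth limits Nr4a3 without LPS, at 1 to 14 reads per library.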
